A study of Mus musculus with 3 samples.

Results

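Hypoxia and glycolysis genes were followed through the cells of 3 mouse pancreatic tumours. The set holds 32 genes of the 31053 listed in the count tables, chosen by symbol: 15 glycolytic enzymes and transporters and 17 other genes of the hypoxia-inducible factor (HIF) pathway. The tumours grew in immunodeficient NSG mice, whose remaining host cells include myeloid, stromal and endothelial cells, after orthotopic transplantation of tdTomato+ epithelial cells. The donor mice were Msi2-Myc; R26-LSL-tdTomato, treated with tamoxifen 5 weeks before their cells were taken. Msi2-Myc stands for the Musashi2-CreER-MycT58A line of the series title, in which tamoxifen-activated CreER under the Musashi2 gene starts expression of a MYC form and of the reporter. EpCAM+ cells were sorted from the end-stage tumours, 1 library per tumour, to ask whether a pool of pre-cancer cells without a set fate gives rise to several tumour subtypes. All 3 tumours have the same genotype and treatment labels, so they form 1 group, and no test was made between them.

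In mammalian cells HIF1A is hydroxylated by prolyl hydroxylases such as EGLN1 and EGLN3 and destroyed while oxygen is plentiful. When oxygen falls it accumulates and binds DNA motifs of the form ACGTG or GCGTG near its targets. These include the glucose transporter SLC2A1, most glycolytic enzymes, the lactate exporter SLC16A3 and genes of angiogenesis, pH control, mitophagy and lipid storage. Pancreatic tumours are poorly supplied with blood and are known for hypoxic regions, and MYC raises many of the same glycolytic enzymes.

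Cells were split into gates by the UMIs (unique molecular identifiers, 1 per captured transcript) of 9 marker genes. Msln, Tm4sf1 and F3 are surface genes, Krt5 and Krt14 are squamous keratins, Tff1 and Lgals4 are ductal genes of gastric type, and Ctrb1 and Clps encode acinar digestive proteins. None of the 32 genes is a marker, so the gates did not use their levels directly. The gate markers were chosen with earlier results of these data known, so differences between gates are not independent of those results. For tumours 1, 2 and 3, the Msln/Tm4sf1/F3 gate held 17, 2 and 20 cells, the squamous gate 1, 2 and 54, the ductal gate 449, 99 and 231, and the acinar gate 475, 55 and 2113. Cells in no gate numbered 311, 62 and 283. As a check with other markers, 18 further acinar genes summed to 10248, 6550 and 12217 CPM (a gene's UMIs over all UMIs of the sum, scaled to a fixed total) in the acinar gate and 10 further ductal genes to 9147, 7891 and 11414 CPM in the ductal gate. The same ductal genes summed to 6446 and 8588 CPM in the Msln/Tm4sf1/F3 gate of tumours 1 and 3, and the acinar genes to 95.8 and 721 CPM there. In tumour 3, 8 further squamous genes summed to 9113 CPM in the squamous gate. Endothelial, erythroid and fibroblast marker genes were at 0 UMIs in the Msln/Tm4sf1/F3 gate of all 3 tumours, myeloid genes at 72 CPM or less, and Epcam was at 695 CPM in tumour 1 and 999.8 CPM in tumour 3.

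The sequences just upstream of Adm, Plin2, Slc2a1 and Hk2, 4 of the 5 members with the smallest p-values in the first comparison below, are shown because HIF acts through a motif that can be read in them. RefSeq windows on GRCm38.p6 were found for 30 of the 32 members, and Ndrg1 was 1 of those without. Letters are 5′ to 3′ on the gene's strand, the 250 bases before the start site, with the motif, on either strand (CACGT or CACGC on the other), in capitals. Adm lies at chr7:110627407-110627656 on the plus strand, Plin2 at chr4:86670060-86670309 on the minus strand, Slc2a1 at chr4:119108495-119108744 on the plus strand and Hk2 at chr6:82774455-82774704 on the minus strand.
Adm: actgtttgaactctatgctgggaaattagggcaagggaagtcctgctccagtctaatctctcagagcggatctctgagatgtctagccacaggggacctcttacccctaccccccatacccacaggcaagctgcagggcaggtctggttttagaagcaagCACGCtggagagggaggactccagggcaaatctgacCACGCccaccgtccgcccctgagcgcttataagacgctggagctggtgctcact
Plin2: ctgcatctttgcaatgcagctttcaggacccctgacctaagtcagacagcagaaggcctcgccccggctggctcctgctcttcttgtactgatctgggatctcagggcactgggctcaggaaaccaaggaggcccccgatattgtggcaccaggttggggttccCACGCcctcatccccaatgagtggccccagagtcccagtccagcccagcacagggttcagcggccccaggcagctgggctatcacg
Slc2a1: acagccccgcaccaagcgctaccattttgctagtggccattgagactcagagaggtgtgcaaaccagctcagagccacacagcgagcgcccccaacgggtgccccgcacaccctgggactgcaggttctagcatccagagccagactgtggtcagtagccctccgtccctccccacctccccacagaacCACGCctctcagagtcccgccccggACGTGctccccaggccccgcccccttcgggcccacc
Hk2: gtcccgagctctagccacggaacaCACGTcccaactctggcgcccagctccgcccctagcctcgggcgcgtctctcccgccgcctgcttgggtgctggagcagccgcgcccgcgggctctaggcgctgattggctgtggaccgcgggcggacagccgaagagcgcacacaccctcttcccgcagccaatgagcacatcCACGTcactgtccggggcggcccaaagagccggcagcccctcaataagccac
Adm had matches beginning 90 and 54 bases before the start, and Plin2 had 1 match, 86 bases before it. Slc2a1 had matches 61 and 36 bases before the start and Hk2 had matches 226 and 52 bases before it. These are RefSeq starts. The GENCODE start of Slc2a1, at 119108711, lies inside the printed window, so its matches are nearer to that start. Over the whole 300-base window, which also takes the 50 bases after the start, 28 of 30 members (93.3%) held a match to either motif on either strand, against 46.7% of all 27025 genes with a window. For ACGTG or CACGT alone the shares were 73.3% of the members and 21.8% of all genes. A match is a run of letters and not a measured binding site.

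The members were counted in every library. Over all kept cells (1431, 253 and 2804 for tumours 1, 2 and 3), the 15 glycolytic genes summed to 6435, 6719 and 5928 CPM and the 17 HIF pathway genes to 920.0, 1071 and 1178 CPM. Median depth was 1621, 1333 and 1606 UMIs per cell, from count tables of 11502184, 9737397 and 16521484 UMIs. Many barcodes recur across the 3 libraries: 186, 133 and 181 barcodes passed the other cell filters in tumours 1 and 2, 1 and 3, and 2 and 3. Each barcode was kept only where 60% or more of its UMIs lay. Kept cells had medians of 75.1% to 80% of their UMIs in their own library, and this sharing touches every value below. In the acinar gate, barcodes with at most 10% of their UMIs from the ribosomal RNA locus made up 296 of 475, 49 of 55 and 593 of 2113.

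Set against ductal cells, the few cells of the Msln/Tm4sf1/F3 gate had higher summed levels of the HIF pathway genes. These reached 4409 CPM in tumour 1 and 3048 CPM in tumour 3, against 772, 667 and 817 CPM in the ductal gate (mean 752 ± 77.0, SD, n = 3) and 835, 834 and 1114 CPM in the acinar gate (mean 927 ± 162, SD, n = 3). The glycolytic genes summed to 10687 CPM in tumour 1 and 7367 CPM in tumour 3 of the Msln/Tm4sf1/F3 gate, against 6536, 5020 and 5056 CPM in the ductal gate and 6358, 7179 and 5787 CPM in the acinar gate. With all cells, both Msln/Tm4sf1/F3 sums lay above every ductal and acinar sum for either group of genes. Without the cell with the most member UMIs of each sum, the HIF pathway genes were at 2318 and 2454 CPM in tumours 1 and 3 of the Msln/Tm4sf1/F3 gate, still above the ductal (634 to 813 CPM) and acinar sums (840 to 1110 CPM). The glycolytic genes were then at 9236 and 6832 CPM, and the tumour 3 value lay below the 7190 CPM of acinar cells in tumour 2. Acinar cells without barcodes rich in ribosomal RNA had 7288, 7581 and 6957 CPM of the glycolytic genes, so those groups overlapped as well. The 2 gate cells of tumour 2 held 8 UMIs of the HIF pathway genes and 33 of the glycolytic genes and entered no test.

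**Figure D1:**
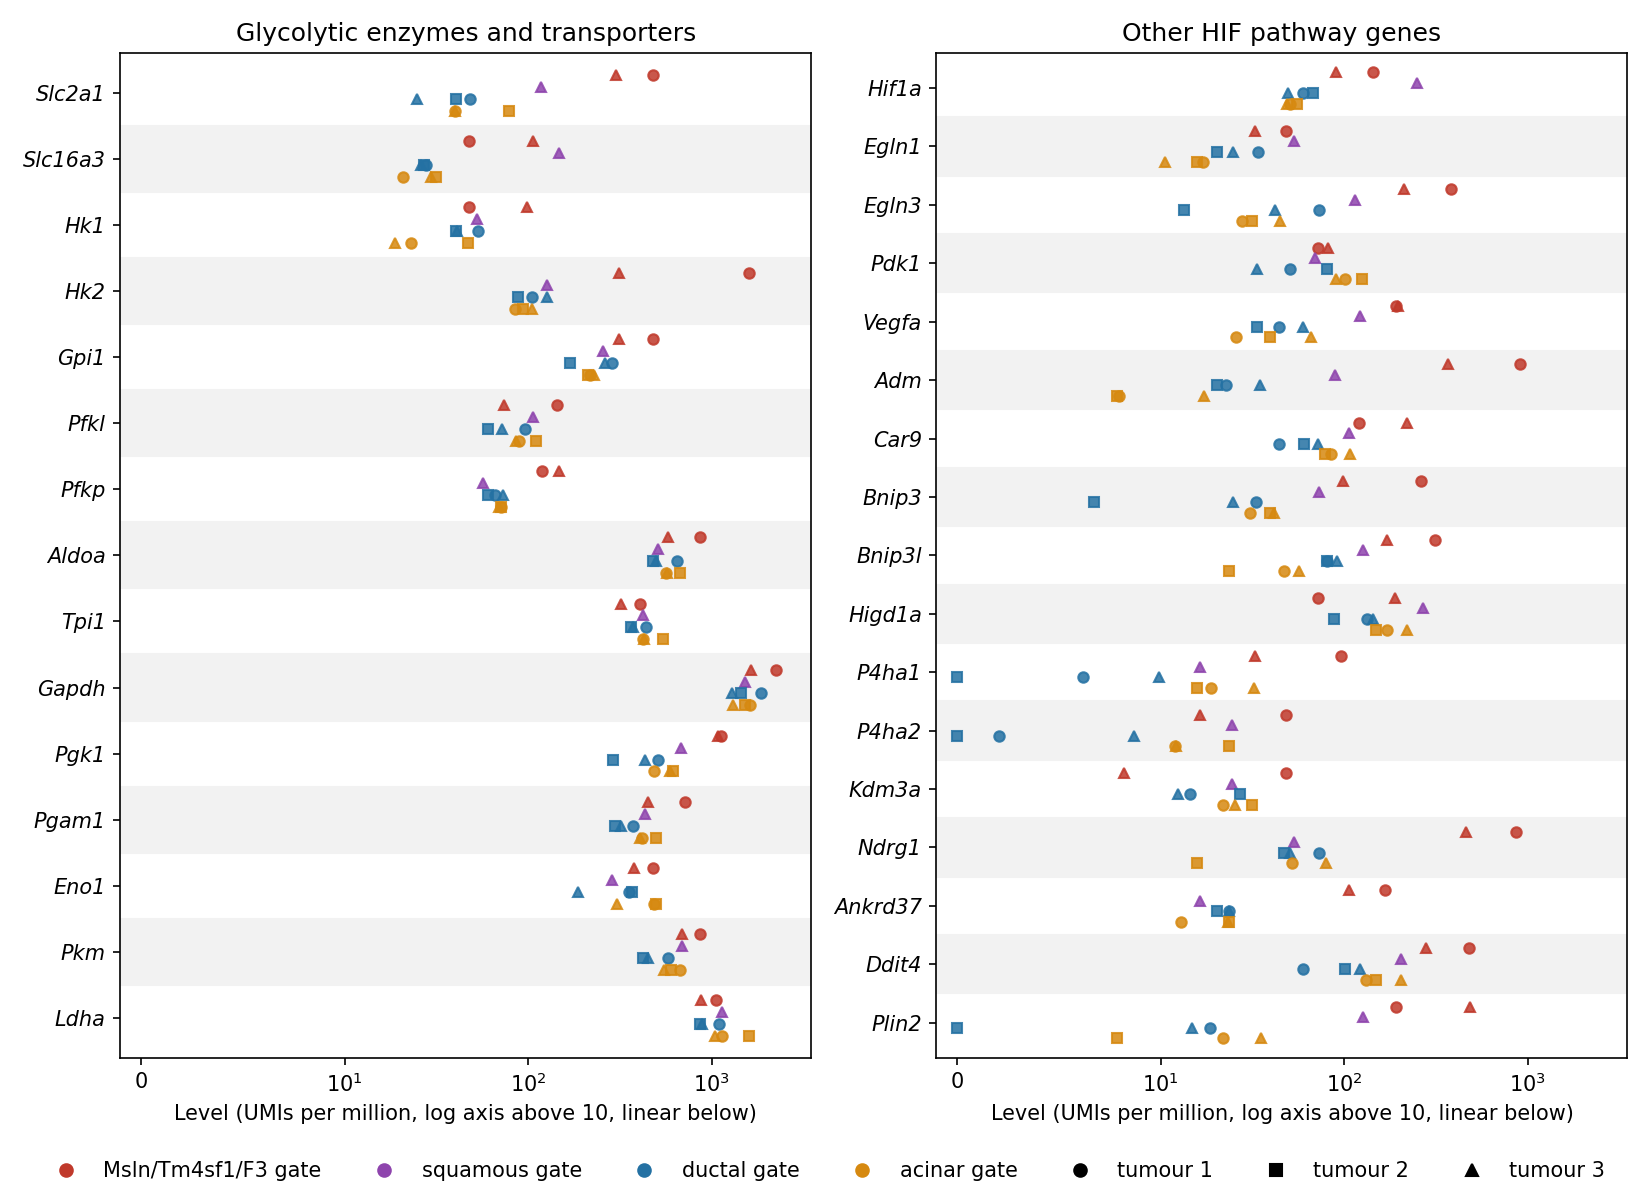
Level of each of the 32 genes (CPM) by gate and tumour, on an axis that is logarithmic above 10 and linear below. The Msln/Tm4sf1/F3 gate is shown for tumours 1 and 3 and the squamous gate for tumour 3. Adm, Plin2, Ndrg1, Slc2a1 and Hk2 lie furthest to the right in the Msln/Tm4sf1/F3 gate relative to the ductal and acinar gates, while Gapdh, Tpi1, Aldoa and Ldha lie close together in all of them.

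A gene-by-gene test of Msln/Tm4sf1/F3 against ductal sums (2 against 3 sums) found 13 of the 32 members higher and 0 lower, at an adjusted p under 0.05. Of all 6847 genes tested, 6.28% passed, 3.43% higher and 2.85% lower. The median log2 difference was 1.69 over the HIF pathway genes and 0.55 over the glycolytic genes, against -0.16 over all genes tested. All 32 members passed the filter on low counts. At an unadjusted p under 0.05 edgeR also put 0 members lower, as did DESeq2. The 13 were 10 HIF pathway genes (Adm, Plin2, Ndrg1, Bnip3, Ankrd37, Egln3, Ddit4, Vegfa, Car9 and Bnip3l) and 3 glycolytic genes (Slc2a1, Hk2 and Pgk1).

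Single cells of high RNA content gave a large part of the UMIs of several of these genes. In tumour 1, 1 cell of 13259 UMIs gave 60 of the 67 Hk2 UMIs of the gate, 34 of 38 for Adm, 29 of 36 for Ndrg1 and 15 of 20 for Slc2a1. That cell had 15.7% mitochondrial UMIs and 10.0% Malat1, a nuclear noncoding RNA. In tumour 3, 1 cell of 20158 UMIs with 14.0% Malat1 gave 21 of 38 Hk2, 21 of 37 Slc2a1 and 19 of 45 Adm UMIs. Leaving out the cell with the most member UMIs from each sum left 6 members higher than in ductal cells: Plin2, Adm, Ndrg1, Slc2a1, Ddit4 and Pgk1. In that fit 121 of 6473 genes in all were higher, against 235 of 6847 with all cells. The cell left out was picked by its member UMIs, so a fall in member levels was built in. Loss of counts was not told apart from it. Leaving out all cells above 2% Malat1 left the same 6 genes, where 123 of 6500 genes in all were higher. Thinning every cell to 1000 UMIs gives each cell equal weight, and the cells were then gated anew. The Msln/Tm4sf1/F3 gate held 14 and 12 cells in tumours 1 and 3 after it, and only 24 members could be tested. Before thinning the 2 sums held 41734 and 122029 UMIs, so equal weight and loss of counts were not told apart. Plin2 was higher (log2 difference 3.25) and Ldha lower (-1.24), and no other member passed. Of 3341 genes tested after thinning, 29 were higher and 126 lower. The median log2 difference was then 0.62 over the HIF pathway genes and -0.27 over the glycolytic genes, against -0.52 over all genes. The p-values take a sum of 17 or 20 cells to vary like the larger ductal and acinar sums.

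**Figure D2:**
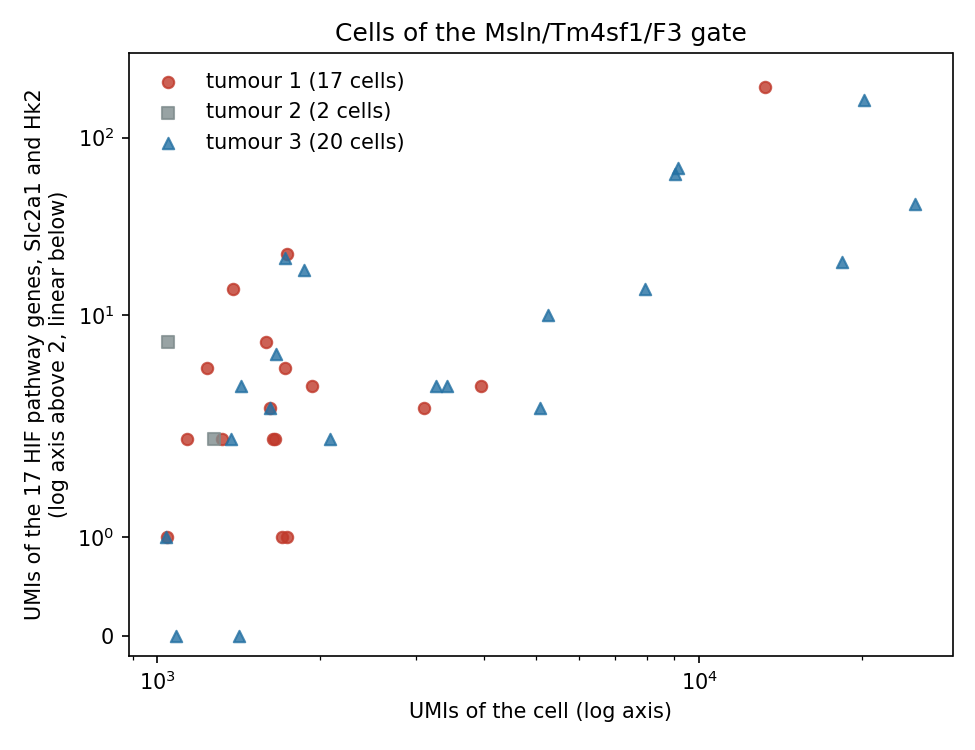
Each point is 1 cell of the Msln/Tm4sf1/F3 gate, placed by its total UMIs and by its UMIs of the 17 HIF pathway genes, Slc2a1 and Hk2 together. The cell of 13259 UMIs in tumour 1 carries 193 of these UMIs and the next cell of that tumour 22, while in tumour 3 the cell of 20158 UMIs carries 164.

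Among secreted and signalling products, Adm, which encodes the vasodilator peptide adrenomedullin (chromosome 7, 110627661 to 110629820), was at 911 CPM in tumour 1 and 369 CPM in tumour 3 of the Msln/Tm4sf1/F3 gate. Ductal cells had 22.6, 20.2 and 34.7 CPM of Adm and acinar cells 7.96, 7.86 and 17.3 CPM. Both Msln/Tm4sf1/F3 sums lay above all others. The log2 difference was 4.11 ± 0.34 (SE) from ductal (adjusted p = 1.3e-19) and 4.88 ± 0.33 from acinar (adjusted p = 1.4e-26), and 2.52 and 3.63 without the leading cells. Adm UMIs were found in 3 of 17 cells in tumour 1 and 6 of 20 in tumour 3. Vegfa, the main angiogenic growth factor, was at 192 and 197 CPM, against 44.2, 33.7 and 59.4 CPM in ductal and 25.9, 39.3 and 66.1 CPM in acinar cells. It was higher in both comparisons (1.61 ± 0.39 and 1.62 ± 0.37, adjusted p = 0.002 and 0.00041), but passed in neither without the leading cells.

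Plin2, the coat protein of lipid droplets (chromosome 4, 86648386 to 86670060), kept its call without the leading cells and with thinning. It was at 192 CPM in tumour 1 and 483 CPM in tumour 3 of the Msln/Tm4sf1/F3 gate, against 18.5, 0 and 14.9 CPM in ductal and 21.9, 7.86 and 35.0 CPM in acinar cells. The groups did not overlap. UMIs of Plin2 were found in 5 of 17 and 12 of 20 cells, with at most 2 of 8 and 19 of 59 UMIs from 1 cell. The log2 difference was 4.27 ± 0.38 from ductal (adjusted p = 1.3e-17) and 3.39 ± 0.32 from acinar (adjusted p = 4.2e-17), and 4.09 and 3.32 without the leading cells.

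Slc2a1, the glucose transporter GLUT1 (chromosome 4, 119108711 to 119137983), was at 479 and 303 CPM in tumours 1 and 3 of the Msln/Tm4sf1/F3 gate. Ductal cells had 48.3, 40.4 and 24.8 CPM of Slc2a1 and acinar cells 39.8, 78.6 and 40.2 CPM, so the groups did not overlap. The log2 difference was 3.23 ± 0.34 from ductal (adjusted p = 8.3e-14) and 2.85 ± 0.31 from acinar (adjusted p = 1.3e-13), and 2.04 and 1.72 without the leading cells. The free RNA of the same libraries, read from barcodes of 10 to 100 UMIs, held 715, 1005 and 973 CPM of Slc2a1. Malat1 was also high in free RNA (22330, 31137 and 27315 CPM) and reached 35894 and 42490 CPM in the Msln/Tm4sf1/F3 gate of tumours 1 and 3, against 3448, 5640 and 8112 CPM in ductal cells. Erythroid genes, at 1771, 2590 and 3575 CPM in free RNA, and endothelial genes, at 781, 1059 and 1023 CPM there, were at 0 UMIs in the gate. The part of free RNA in the Slc2a1 level was not tested further.

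Ndrg1, a stress gene induced by hypoxia (chromosome 15, 66929318 to 66969640), had 863 and 459 CPM in tumours 1 and 3 of the Msln/Tm4sf1/F3 gate. It was at 73.0, 47.2 and 50.8 CPM in ductal cells and at 51.7, 15.7 and 79.3 CPM in acinar cells, again without overlap. The log2 difference was 3.06 ± 0.30 from ductal (adjusted p = 1.6e-15) and 2.86 ± 0.28 from acinar (adjusted p = 2.1e-16), and 2.17 and 2.11 without the leading cells. Free RNA held 232, 287 and 312 CPM of Ndrg1.

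Hk2, the inducible hexokinase that starts glycolysis (chromosome 6, 82725025 to 82774454), was at 1605 and 311 CPM in the Msln/Tm4sf1/F3 gate of tumours 1 and 3, against 105, 87.6 and 126 CPM in ductal and 84.5, 94.4 and 106 CPM in acinar cells. The test put it higher than in ductal cells (2.56 ± 0.28, adjusted p = 6.7e-13) and than in acinar cells (2.63 ± 0.28, adjusted p = 1.7e-14). Neither call held without the leading cells, and the sign turned without cells above 2% Malat1, to -1.18 from ductal and -0.99 from acinar, neither past the threshold. Hk2 UMIs were in 4 of 17 and 5 of 20 cells. Hk1, the housekeeping hexokinase, was at 47.9 and 98.3 CPM, against 53.5, 40.4 and 40.9 CPM in ductal and 22.9, 47.2 and 18.8 CPM in acinar cells. It was higher than in acinar cells (1.79 ± 0.54, adjusted p = 0.011) with a difference of 0.82 ± 0.51 from ductal cells that did not pass. The gate held only 2 Hk1 UMIs in 2 of 17 cells of tumour 1, and 12 in 7 of 20 cells of tumour 3.

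Of the remaining enzymes, Pgk1 alone passed in either comparison, and with 2 Msln/Tm4sf1/F3 sums a call that was not made does not show equal levels. Pgk1, the first ATP-forming enzyme of glycolysis, was at 1126 and 1089.9 CPM in the Msln/Tm4sf1/F3 gate, against 509, 289.8 and 433 CPM in ductal and 486, 613 and 593 CPM in acinar cells. It was higher than in ductal cells (1.14 ± 0.22, adjusted p = 5.7e-05, and 0.82 without the leading cells) and than in acinar cells (0.70 ± 0.22, adjusted p = 0.014, a call lost without them). Gapdh, which oxidises glyceraldehyde phosphate, was at 2252 and 1631 CPM, against 1856, 1442 and 1286 CPM in ductal and 1628, 1518 and 1309 CPM in acinar cells, with log2 differences of 0.14 from both. Ldha, which turns pyruvate into lactate, was at 1054 and 877 CPM, against 1095, 869 and 882 CPM in ductal and 1138, 1596 and 1042 CPM in acinar cells, and its differences of -0.12 and -0.51 did not pass. Gpi1, Pfkl, Pfkp, Aldoa, Tpi1, Pgam1, Eno1 and Pkm passed in neither comparison, with log2 differences between -0.32 and 0.86 from ductal and between -0.56 and 0.73 from acinar. The largest of these was Pfkp, a phosphofructokinase, at 0.86 ± 0.40 from ductal cells (adjusted p = 0.20). Slc16a3, the lactate exporter MCT4, was at 47.9 and 107 CPM, against 27.8, 26.95 and 26.0 CPM in ductal and 20.9, 31.5 and 29.7 CPM in acinar cells. It passed against acinar (1.47 ± 0.51, adjusted p = 0.032) and not against ductal cells (1.53 ± 0.54, adjusted p = 0.071), and in neither without the leading cells. The gate held only 2 Slc16a3 UMIs in 1 of 17 cells of tumour 1, and 13 in 5 of 20 cells of tumour 3. Gapdh, Eno1, Pgam1, Tpi1, Ldha and Pkm have near-identical copies in the mouse genome, and the sources used here do not say how shared reads were counted.

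Within the oxygen-sensing part of the pathway, Hif1a itself, the regulated subunit, was at 144 and 90.1 CPM in the Msln/Tm4sf1/F3 gate, against 59.6, 67.4 and 49.5 CPM in ductal and 50.7, 55.0 and 48.6 CPM in acinar cells. The differences of 0.81 ± 0.45 and 0.85 ± 0.44 did not pass. Egln3, a prolyl hydroxylase that HIF itself induces, was at 383 and 213 CPM, against 73.0, 13.5 and 42.1 CPM in ductal and 27.9, 31.5 and 44.9 CPM in acinar cells. Egln3 was higher in both comparisons (2.10 ± 0.36, adjusted p = 4.9e-06, and 2.43 ± 0.35, adjusted p = 1.4e-08), and without the leading cells it still passed against acinar cells. Egln1, the main oxygen sensor, had 2 and 4 UMIs in the gate sums and did not pass.

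The mitophagy receptors Bnip3 and Bnip3l were at 264 and 98.3 CPM and at 312 and 172 CPM in tumours 1 and 3 of the Msln/Tm4sf1/F3 gate. Ductal cells had 32.9, 6.74 and 24.8 CPM of Bnip3 and 80.2, 80.9 and 91.6 CPM of Bnip3l, and acinar cells had 30.8, 39.3 and 41.4 CPM of Bnip3 and 46.8, 23.6 and 56.9 CPM of Bnip3l. Both genes were higher in both comparisons, with log2 differences of 2.24 and 1.11 from ductal and 1.62 and 1.76 from acinar cells. Without the leading cells only the Bnip3l difference from acinar cells passed among these 4. Ankrd37, an ankyrin-repeat protein, was at 168 and 107 CPM, against 23.6, 20.2 and 23.5 CPM in ductal and 12.9, 23.6 and 23.3 CPM in acinar cells. Its UMIs came from 1 of 17 and 4 of 20 cells, and its calls (2.19 and 2.33) were lost without the leading cells.

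Ddit4, an inhibitor of the growth kinase mTORC1, was at 479 and 279 CPM in the Msln/Tm4sf1/F3 gate, against 59.6, 101 and 121 CPM in ductal and 131, 149 and 203 CPM in acinar cells. It was found in 11 of 17 and 13 of 20 cells. Ddit4 was higher than in ductal cells (1.69 ± 0.31, adjusted p = 2.4e-05, and 1.495 without the leading cells), while 0.72 ± 0.29 from acinar cells did not pass (adjusted p = 0.069). Car9, the carbonic anhydrase that acidifies the surroundings of hypoxic cells, was at 119.8 and 221 CPM, against 44.2, 60.6 and 71.8 CPM in ductal and 84.5, 78.6 and 107 CPM in acinar cells. Car9 passed against ductal cells (1.47 ± 0.37, adjusted p = 0.0039), not against acinar cells, and in neither without the leading cells. P4ha1, a collagen prolyl hydroxylase with 4 UMIs in each gate sum, differed from ductal cells by 2.42 ± 0.82 (adjusted p = 0.054). It passed in 8 of 16 alternatives, DESeq2 among them (2.79, adjusted p = 0.039). Pdk1, Higd1a, Kdm3a and P4ha2 passed in neither comparison.

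**Figure D3:**
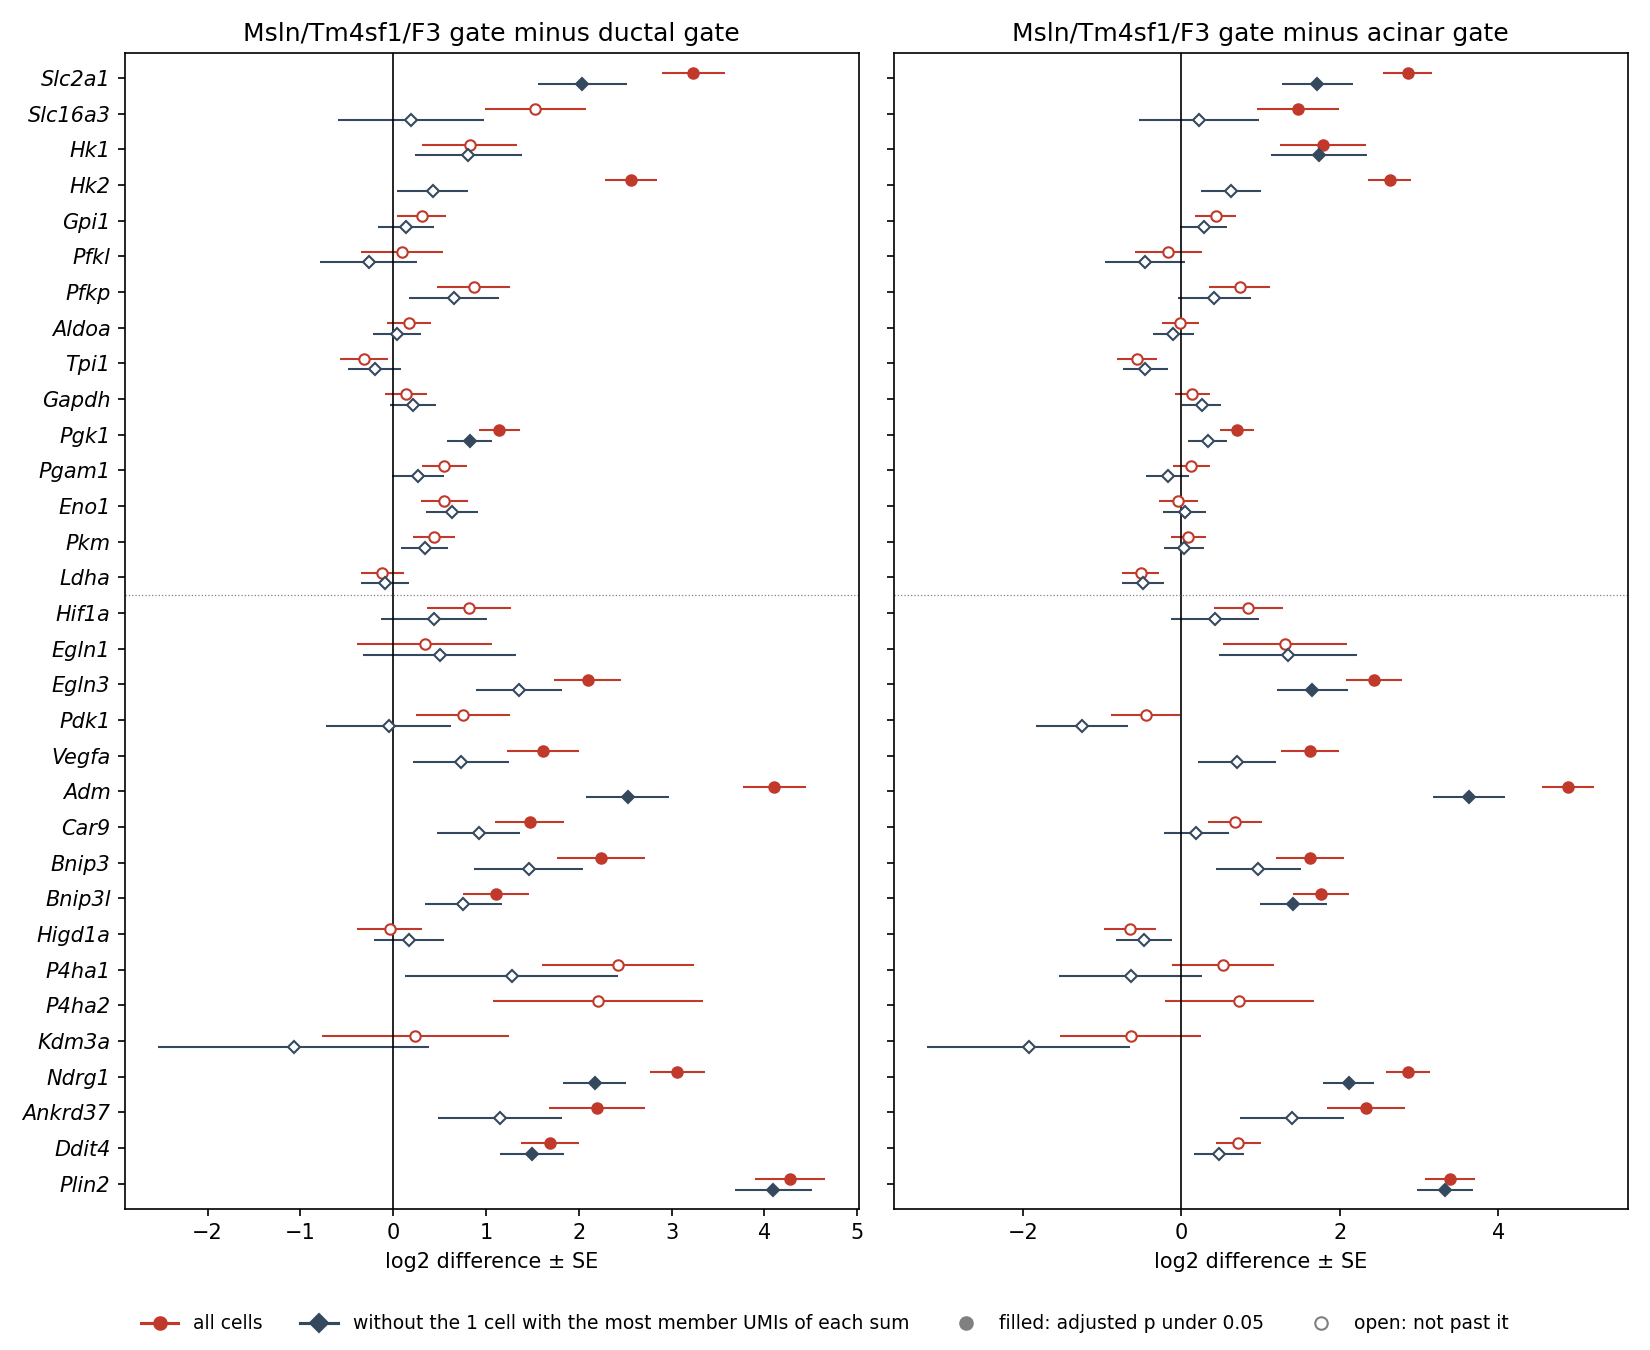
Log2 difference ± SE of each member for the Msln/Tm4sf1/F3 gate minus the ductal gate (left) and minus the acinar gate (right). Circles take all cells and diamonds leave out the cell with the most member UMIs of each sum, and filled symbols passed an adjusted p of 0.05. From ductal cells 13 circles and 6 diamonds are filled, and the Hk2 diamond lies at 0.42 (circle 2.56) while the Plin2 diamond lies at 4.09 (circle 4.27).

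Against acinar cells 13 members were also higher and 0 lower, in a comparison that uses the same Msln/Tm4sf1/F3 sums, where 17.4% of all genes passed, 9.36% higher and 8.05% lower. They were the HIF pathway genes Adm, Plin2, Ndrg1, Egln3, Ankrd37, Bnip3l, Bnip3 and Vegfa and the glycolytic genes Slc2a1, Hk2, Hk1, Slc16a3 and Pgk1. The median log2 difference was 1.31 over the HIF pathway genes and 0.14 over the glycolytic genes, against -0.17 over all genes. At an unadjusted p under 0.05 edgeR put 2 members lower, Tpi1 and Ldha, and DESeq2 put 0 lower at its adjusted threshold. Leaving out the leading cells left 7 members higher, namely Plin2, Adm, Ndrg1, Slc2a1, Hk1, Egln3 and Bnip3l. In that fit 404 of 6473 genes in all were higher. Leaving out cells above 2% Malat1 left 5, where 275 of 6500 genes in all were higher. Thinning each cell to 1000 UMIs, with cells gated anew, left Plin2 and Adm higher, with Ldha and Tpi1 lower. Of 3341 genes tested after thinning, 106 were higher and 206 lower. The median log2 difference was then 0.08 over the HIF pathway genes and -0.62 over the glycolytic genes, against -0.52 over all genes.

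Other measures also differed between the gates. Cell cycle genes summed to 1054 and 738 CPM for tumours 1 and 3, compared with 2297, 1880 and 1591 CPM in ductal and 3707, 5151 and 3332 CPM in acinar cells. Immediate early genes, which rise during tissue dissociation, summed to 5607 and 2803 CPM, against 1827, 1907 and 3145 CPM in ductal and 2175, 1423 and 3510 CPM in acinar cells. The tumour 1 sum was above both other gates of that tumour and the tumour 3 sum below them. Mitochondrial transcripts summed to 72147 and 93101 CPM, against 53850, 49837 and 87097 CPM in ductal cells. Taking only cells with at most 10% mitochondrial UMIs left 6 members higher in each comparison. Of 5369 genes in all, 120 were then higher than in ductal and 309 higher than in acinar cells. The part of these measures in the differences was not tested.

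A wider list of 50 other hypoxia targets was read beside the members, and 32 of them could be tested. Against ductal cells edgeR put 9 higher and 0 lower, where 3.43% of all genes were higher and 2.85% lower. Against acinar cells 13 were higher and 3 lower, where 9.36% of all genes were higher and 8.05% lower. Pfkfb3, which makes an activator of phosphofructokinase, was at 264 and 197 CPM in tumours 1 and 3 of the Msln/Tm4sf1/F3 gate, against 16.4, 0 and 11.1 CPM in ductal and 30.8, 23.6 and 51.1 CPM in acinar cells. Ero1l, an oxidase of protein folding in the endoplasmic reticulum, was at 599 and 1221 CPM, against 99.7, 40.4 and 120.1 CPM in ductal cells. The log2 difference from ductal cells was 3.77 ± 0.46 for Pfkfb3 and 3.02 ± 0.24 for Ero1l. Without the leading cells it was 2.27 for Pfkfb3 and 2.53 for Ero1l, and both passed. Hilpda, a lipid droplet protein like Plin2, differed by 3.13 ± 0.36 and by 2.37 without the leading cells, and passed both times. Hmox1, a haem oxygenase, differed by 3.40 ± 0.69 and did not pass without them. Plaur, the urokinase receptor, was at 264 and 377 CPM, against 92.5, 67.4 and 114 CPM in ductal and 23.9, 7.86 and 15.9 CPM in acinar cells. Without the leading cells 6 of 30 tested were higher than in ductal cells, where 121 of 6473 genes in all were higher. Against acinar cells 6 were then higher and 3 lower, where 404 of 6473 genes in all were higher and 362 lower.

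Between the 2 large gates, ductal cells had lower levels of several HIF pathway genes than acinar cells. Of the 32 members, 4 were higher and 11 lower, where 35.1% of all 7373 genes tested passed, 18.5% higher and 16.6% lower. The median log2 difference was -0.55 over the HIF pathway genes and -0.22 over the glycolytic genes, against 0.00 over all genes. Leaving out tumours 1, 2 and 3 in turn, the HIF pathway median was -0.61, -0.47 and 0.23, so its sign turned without tumour 3. With at most 10% mitochondrial UMIs it was -0.06. The count of members was not stable. The DESeq2 test put 0 members higher and 2 lower, where 644 of all 7373 genes were higher and 436 lower. Leaving out tumour 3 also left 0 and 2, where 686 of 6171 genes in all were higher and 523 lower. In both cases the 2 were Pdk1 and Ddit4. Leaving out tumour 1 left 0 higher and 5 lower, where 801 of 5638 genes in all were higher and 617 lower. Ductal cells also had lower cell cycle levels, as given above, and cells with at most 2 cell cycle UMIs per 1000 gave 0 higher and 3 lower. In that fit 704 of 6664 genes in all were higher and 609 lower. It lost the acinar sum of tumour 2, where 12 cells were left, and had 5 sums and 1 residual degree of freedom. The lost sum and the cell cycle were not told apart. Leaving out barcodes rich in ribosomal RNA, which are mostly in the acinar gate of tumour 3, gave 4 higher and 11 lower. These 11 were 6 HIF pathway and 5 glycolytic genes, against 8 and 3 with all barcodes. In that fit 1272 of 7033 genes in all were higher and 1264 lower.

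Pdk1, the kinase that shuts pyruvate out of mitochondrial oxidation, was at 50.4, 80.9 and 33.4 CPM in ductal cells of tumours 1, 2 and 3, against 101.5, 126 and 90.5 CPM in acinar cells. It was lower in ductal cells in 3 of 3 tumours, by a log2 difference of -1.21 ± 0.21 (adjusted p = 1.6e-06). Ddit4 was also lower in 3 of 3 tumours, with the levels given above and a difference of -0.96 ± 0.17 (adjusted p = 3.6e-06). The collagen prolyl hydroxylases P4ha1 and P4ha2 were at 6.17, 0 and 9.90 CPM and at 2.06, 0 and 8.67 CPM in ductal cells. Acinar cells had 18.9, 15.7 and 32.4 CPM of P4ha1 and 11.9, 23.6 and 12.2 CPM of P4ha2. Their differences were -1.84 ± 0.41 (adjusted p = 0.00014) and -1.41 ± 0.53 (adjusted p = 0.031). Car9, at the levels above, differed by -0.79 ± 0.20 (adjusted p = 9e-04) and did not overlap between the gates. Higd1a, a mitochondrial protein of hypoxia survival, was at 134, 87.6 and 144 CPM in ductal and 171, 149 and 219.9 CPM in acinar cells (-0.61 ± 0.16, adjusted p = 0.0014). Plin2 (-0.94 ± 0.33, adjusted p = 0.022) and the histone demethylase Kdm3a (-0.85 ± 0.35, adjusted p = 0.045) completed the 8 HIF pathway genes that were lower. The Kdm3a call was lost in 16 of 23 alternatives and the Plin2 call in 8 of 21.

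Of the glycolytic genes, 3 were lower in ductal cells. Eno1, the enolase, was at 357, 371 and 188 CPM in ductal and 486, 495 and 307 CPM in acinar cells, lower within each tumour (-0.60 ± 0.14, adjusted p = 0.00045). Pgk1 (-0.42 ± 0.15, adjusted p = 0.023) and Pgam1, the phosphoglycerate mutase (-0.41 ± 0.14, adjusted p = 0.018), were the other two, and Pgk1 was lower in 2 of 3 tumours. Ldha (-0.38 ± 0.17, adjusted p = 0.068) and Pkm, the pyruvate kinase (-0.34 ± 0.15, adjusted p = 0.057), did not pass. The 4 genes that were higher were Hk1 (0.95 ± 0.27, adjusted p = 0.0029), Egln1 at 33.9, 20.2 and 24.8 CPM against 16.9, 15.7 and 10.5 CPM (0.98 ± 0.33, adjusted p = 0.015), Adm (1.02 ± 0.33, adjusted p = 0.011) and Bnip3l (0.67 ± 0.20, adjusted p = 0.0057). Adm, Egln1 and Bnip3l levels were higher in ductal cells in 3 of 3 tumours and Hk1 in 2 of 3. The other 17 members did not pass, among them Slc2a1 (-0.35 ± 0.25), Hk2 (0.15 ± 0.17), Vegfa (0.03 ± 0.23) and Hif1a (0.05 ± 0.22).

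**Figure D4:**
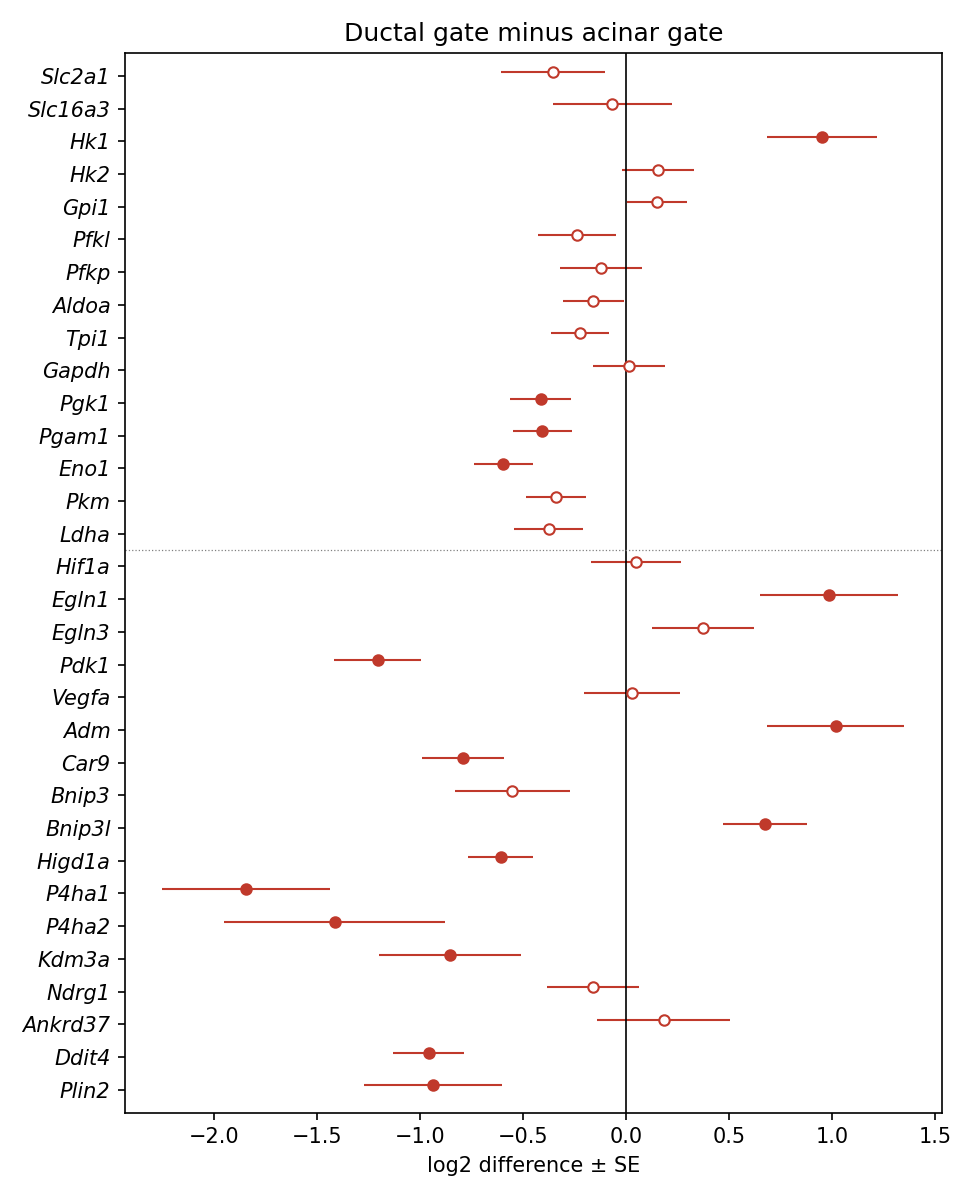
Log2 difference ± SE of each member for ductal minus acinar cells, 3 sums each with the tumour as a block. Filled points passed an adjusted p of 0.05. The 8 filled HIF pathway genes left of 0 run from -0.61 for Higd1a to -1.84 for P4ha1, and the 4 filled points right of 0 are Hk1, Egln1, Adm and Bnip3l.

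The squamous gate could be read in tumour 3 only, in 54 cells with 245360 UMIs, so it has values and no test. Its HIF pathway genes summed to 1736 CPM (95% Poisson interval 1575 to 1909), against 817 CPM (756 to 882) in ductal and 1114 CPM (1085 to 1144) in acinar cells of the same tumour. Its glycolytic genes summed to 6545 CPM (6229 to 6874), against 5056 CPM (4902 to 5214) in ductal and 5787 CPM (5719 to 5855) in acinar cells, and to 6224 CPM without the 1 cell with the most member UMIs. Hif1a was at 249 CPM (190.2 to 319), found in 25 of 54 cells, against 49.5 CPM in ductal and 48.6 CPM in acinar cells. Slc16a3 was at 147 CPM (103 to 203), against 26.0 and 29.7 CPM. Slc2a1 was at 118 CPM (79.2 to 169.7), against 24.8 and 40.2 CPM. Adm was at 89.7 CPM and Plin2 at 126 CPM in squamous cells, between the Msln/Tm4sf1/F3 gate of that tumour and the other 2. These intervals cover counting error only.

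Cell by cell, high HIF pathway levels were found in a larger share of Msln/Tm4sf1/F3 cells than of ductal and acinar cells, though in few cells. Each cell was thinned to 1000 UMIs, and the 17 HIF pathway genes, Slc2a1 and Hk2 were counted together. The median cell had 1 of these UMIs in the ductal, acinar and ungated cells of all 3 tumours. It had 1 in the Msln/Tm4sf1/F3 gate of tumour 1 and 2 in that of tumour 3, and 1 in squamous cells of tumour 3. In the Msln/Tm4sf1/F3 gate 5 of 17 cells of tumour 1 (29.4%) and 4 of 20 of tumour 3 (20.0%) had 5 or more. In tumour 3 the shares were 11.1% of squamous cells (6 of 54), 7.77% of ungated (22 of 283), 2.16% of ductal (5 of 231) and 1.70% of acinar cells (36 of 2113). In tumour 1 they were 5.47% of ungated (17 of 311), 2.00% of ductal (9 of 449) and 0.84% of acinar cells (4 of 475). In tumour 2, 2 of 62 ungated, 0 of 99 ductal and 1 of 55 acinar cells reached it, and 0 of 99 allows a share of up to 3.66% (95% exact binomial). Without thinning, the shares of tumour 3 were 50.0% in the Msln/Tm4sf1/F3 gate, 38.9% in squamous, 37.8% in ungated, 18.6% in ductal and 13.3% in acinar cells. In cell number the high cells of tumour 3 were mostly acinar and ungated, 36 and 22, against 4 in the Msln/Tm4sf1/F3 gate.

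**Figure D5:**
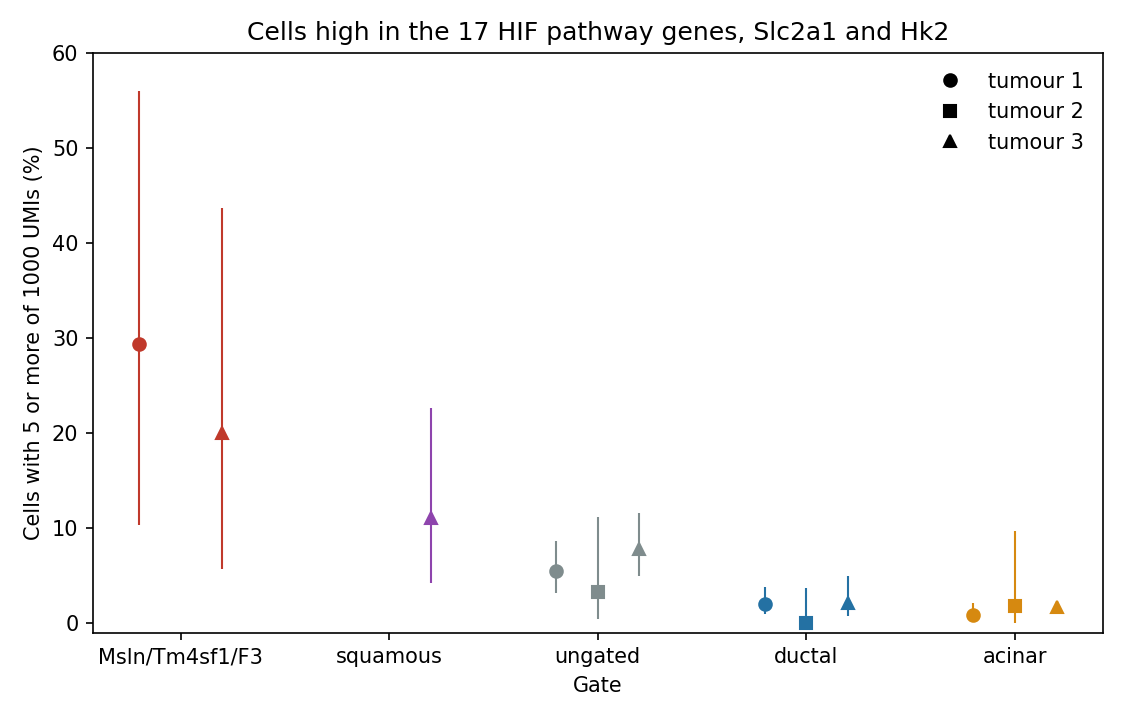
Share of cells with 5 or more of 1000 UMIs from the 17 HIF pathway genes, Slc2a1 and Hk2, by gate and tumour, with exact 95% binomial intervals. Gates of under 10 cells are left out. The Msln/Tm4sf1/F3 gate has the highest shares, 29.4% and 20.0%, with wide intervals, and ductal and acinar cells stay at 2.16% or less.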

How the data were processed

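EpCAM+ cells of 3 tumours were measured by droplet 3′ RNA sequencing (10x Genomics; the labels name a Version 1 and a Version 3 kit). The authors deposited raw UMI counts for each gene and barcode, not normalized. Per the file headers the software was Cell Ranger 3.0.2 (the notes name Cell Ranger 3, Seurat 3.1 and mm10, per the submitters' processing notes). Each table lists 6794880 barcodes, so cells had not been called. The members, gate markers, lists and tests were chosen with earlier results of these data known.

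Computed here: cells had 1000 or more UMIs, 500 or more genes, at most 20% mitochondrial UMIs and 60% or more of the barcode's UMIs in that library. A gate needed 3 UMIs and 0.2% of the cell's UMIs, and 2 times the UMIs of every other gate. No doublets were removed beyond this rule, and leaving out the 5% with the highest scrublet scores (scanpy 1.11.5, Python 3.11.15) was an alternative. Levels are CPM of summed counts. Counting intervals are 95% Poisson or binomial (scipy 1.17.1) and cover counting error only. Raw counts summed per gate and tumour were tested with edgeR 4.0.16 (R 4.3.3, quasi-likelihood, TMM, filterByExpr, tumour as a block), with Benjamini-Hochberg adjustment over all genes except the 9 markers at 0.05. The SE is the log2 difference divided by the square root of F. A planned minimum of 20 cells per sum left no fit for the Msln/Tm4sf1/F3 gate. Its comparisons therefore use a minimum of 10, set after cell numbers were seen, in a fit of 8 sums with 3 residual degrees of freedom, while ductal against acinar has 6 sums and 2. DESeq2 1.42.0 was an alternative test. The gates of a tumour come from 1 animal, which pairs them; their deviations from the gate means correlated at 0.18, 0.10 and 0.39 for tumours 1, 2 and 3 (4572 genes). Each tumour is 1 transplant recipient, and the sources used here do not say whether recipients shared donor cells. The test was also run on simulated data with known 2-fold and 4-fold changes. It recovered 22% and 59% of them for Msln/Tm4sf1/F3 against ductal and 21% and 70.7% against acinar cells. For ductal against acinar cells it recovered 83% and 100%. The simulation changed only genes above the median abundance and gave every sum the same spread. It had no tumour effect and no dominant single cell, so recovery of low-count members may be lower. Aldoa has 2 entries and the larger was used.

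Values are given for members that passed a test or reached 5 CPM, and from other lists for some of the 5 largest differences past the threshold per comparison; 1 gene of these lists is not reported here. The per-cell minimum of 5 UMIs was set after the data were seen. Gene positions are from GENCODE vM21, matched by identifier for all 32 members, and promoter sequences from RefSeq.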

Additional observations from a re-analysis of the deposited data

Results flagged for a closer look

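Free RNA, from barcodes of 10 to 100 UMIs that entered no comparison, held 3 members at 2 times or more their level over kept cells in every tumour. Slc2a1 was at 715.4, 1005.0 and 972.8 CPM in free RNA of tumours 1, 2 and 3, against 50.4, 69.6 and 49.8 CPM in kept cells. Ndrg1 was at 231.7, 286.9 and 311.8 CPM, against 82.3, 106 and 87.4 CPM. Ankrd37 was at 53.9, 65.0 and 59.2 CPM, against 22.8, 23.8 and 25.2 CPM. Free RNA also held erythroid and endothelial marker genes that kept cells nearly lacked, and no source of these transcripts was tested. Hk2, by contrast, was lower in free RNA (57.4, 53.5 and 61.6 CPM) than in kept cells (135, 135 and 119 CPM).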

How the results depend on the processing

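Plin2 kept its call in all 21 alternatives of both Msln/Tm4sf1/F3 comparisons. Among these, leaving out tumour 1 or 3 left only 1 small sum of that gate, and leaving out tumour 2 removed none. Pdk1 and Ddit4 kept their calls in all 24 alternatives of ductal against acinar. Hk2 turned sign without cells above 2% Malat1 (-1.18 from ductal, -0.99 from acinar) and with at most 10% mitochondrial UMIs (-0.0948 and -0.0183). Members higher than in ductal cells numbered 5 where no other gate had 3 UMIs, with 59 of 5336 genes in all higher. They were 1 with thinning, 6 at 10% mitochondrial UMIs, 6 without the leading cells and 6 without cells above 2% Malat1. Leaving out tumour 2 gave 13, with 218 of 8104 genes in all higher, and thinning put 1 lower. Against acinar cells these were 4, 2, 6, 7, 5 and 13. In the first of these fits 168 of 5336 genes in all were higher, and in the last 609 of 8104. Members lower numbered 2 under thinning, 2 without the home-library filter and 1 without barcodes rich in ribosomal RNA. Of all genes, 955 of 5447 were lower without the home-library filter and 634 of 6771 without those barcodes. Without the tumour block both counts of higher members were 12, where 172 (ductal) and 546 (acinar) of 6847 genes in all were higher. For ductal against acinar, members higher and lower were 0 and 2 by DESeq2 and 0 and 3 at low cell cycle UMIs. Without the replicate block they were 2 and 5, where 956 and 711 of 7373 genes in all were higher and lower. Thinning gave 1 and 6 (all genes 664 and 547 of 3955). Without TMM they were 4 and 6 (all genes 1455 and 877 of 7373). A gate minimum of 0.5% gave 1 and 10 (all genes 985 and 821 of 5707). Leaving out a tumour gave 0 to 4 and 2 to 10, with 1472 and 1299 of 7799 genes without tumour 2. Genes called between Msln/Tm4sf1/F3 and ductal cells were 430, against 236 by DESeq2, 255 without the replicate block, 141 to 423 leaving out a tumour, 221 with no other gate, 155 thinned, 894 without the home-library filter, 238 at 10% mitochondrial UMIs, 246 without the leading cells and 252 without cells above 2% Malat1. For Msln/Tm4sf1/F3 and acinar cells 1192 became 741 by DESeq2, 473 to 1214 leaving out a tumour, 443 with no other gate, 312 thinned, 585 at 10% mitochondrial UMIs, 693 at low cell cycle UMIs, 766 without the leading cells and 527 without cells above 2% Malat1. For ductal and acinar cells 2591 became 1080 by DESeq2, 1667 without the replicate block, 1209 to 2771 leaving out a tumour, 1211 thinned and 1313 at low cell cycle UMIs. Without TMM the split of higher and lower genes was 273 and 118 (235 and 195 with it) against ductal and 759 and 321 (641 and 551) against acinar cells, as the median of all genes moved to -0.01 and 0.07. The summed levels that moved were 7275 CPM of glycolytic genes in acinar cells without barcodes rich in ribosomal RNA, 6224 CPM in squamous cells without the leading cell, 2386 CPM of HIF pathway genes in the Msln/Tm4sf1/F3 gate without it, and 658 and 830 CPM in ductal cells at a gate minimum of 0.5% and a home share of 80%. Of 2015 member results, 1813 kept their side of the threshold (1683 with the same sign, 130 uncalled both times with another sign), 166 were weaker, 32 stronger and 4 reversed. Msln/Tm4sf1/F3 comparisons could not be fitted at a gate minimum of 0.5%, a home share of 80% or 50 cells per sum, nor ductal against acinar at a home share of 80%. The cause of these shifts was not tested. Alternatives on leading cells, Malat1 and ribosomal RNA were chosen after seeing the data.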

Other observations

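Lists of genes outside the 32 were also read in ductal against acinar cells, where 35.1% of all genes passed (18.5% higher and 16.6% lower). Of 12 tested other enzymes of glycolysis and gluconeogenesis, 4 were higher in ductal cells and 2 lower. Pklr, the liver-type pyruvate kinase, was at 22.6, 26.95 and 22.3 CPM in ductal and 3.98, 7.86 and 2.47 CPM in acinar cells (log2 difference 2.73 ± 0.46). Fbp2, a gluconeogenic phosphatase, was at 97.7, 67.4 and 95.3 CPM in ductal and 30.8, 15.7 and 12.2 CPM in acinar cells (2.29 ± 0.24). Hkdc1, a hexokinase-like protein, was at 1.03, 0 and 3.71 CPM in ductal and 15.9, 31.5 and 17.9 CPM in acinar cells (-3.10 ± 0.59). Galm and Bpgm were also higher and Galk1 lower. Of 10 tested genes of pyruvate entry into mitochondria, Pcx, Mpc1 and Cs were higher in ductal cells and 0 lower, where 18.5% of all genes were higher. Of 31 tested other hypoxia targets, 4 were higher and 11 lower in ductal cells. Plaur was among the higher (2.42 ± 0.23), and the copper carrier Cp (-2.20 ± 0.38) and Pfkfb3 (-1.74 ± 0.33) were among the lower. Of 10 tested pentose phosphate genes, Pgd was higher and Prps1 and Rpia were lower, 3 of 10 where 35.1% of all genes passed.

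In the Msln/Tm4sf1/F3 gate Mpc2, a subunit of the mitochondrial pyruvate carrier, was lower against ductal (-1.90 ± 0.47) and acinar cells (-1.79 ± 0.47), and passed in both without the leading cells. Cited2, an inhibitor of HIF-driven transcription, was higher against both (1.21 ± 0.40 and 1.15 ± 0.39), and passed in neither without the leading cells.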
